A study of Mus musculus with 14 samples.

Results

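Actin cytoskeleton regulators are the proteins that hold actin monomers ready, build and cut filaments, cap their ends, branch and bundle them, pull on them and tie them to adhesion sites and the cell membrane. In the gut epithelium these proteins maintain the brush border, the cell cortex and the contacts with the matrix. Here 41 genes of this kind were taken from a list of gene symbols, and all 41 had a row in the deposited table of 55401 genes. They fell into 8 subgroups of 2 to 8 genes by the role of the protein. Mean levels over the 12 bait libraries reached 1 CPM (counts scaled to a common library total) for 40 of them, and the exception was Myl9.

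The counts come from APEX-seq of mouse small intestinal organoids (sIOs), 3-dimensional cultures of intestinal epithelium from adult C57BL/6 J mice of both sexes. APEX2, a peroxidase, was fused to a bait protein and brought into sIOs by lentivirus, biotin was attached to RNA close to the bait, and RNA captured on streptavidin was sequenced. The baits were beta-actin (APEX2-ACTB), the apical membrane peptidase DPP4 (APEX2-DPP4) and GFP (APEX2-GFP), with 4 libraries each, and 1 library each is labeled MITO-1 and MITO-1c, from a bait directed to mitochondria. The design text names ACTB and GFP as the controls of the apical bait. The study places both in the cytoplasm and reports weaker staining for the tag of APEX2-ACTB, so it used APEX2-GFP in its later analyses. Its gene set analysis of APEX2-ACTB against APEX2-GFP found terms related to the cytoskeleton. The labels do not say whether replicates were separate cultures, so p-values measure only the spread between these libraries, which may be technical. No unenriched RNA is among the 14 libraries, so the level of an RNA in the organoid and its nearness to a bait cannot be told apart, and neither can fewer cells of a type and less RNA per cell.

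Depth was 9442594 to 36492010 counts per library, and levels are given as CPM scaled by the trimmed mean of M-values (TMM). Libraries of the same bait differed widely. Summed levels of 12 enterocyte markers were 190 to 42400 CPM in APEX2-ACTB, 459 to 68200 CPM in APEX2-DPP4 and 411 to 43900 CPM in APEX2-GFP libraries. The 8 fetal or regenerative epithelial markers, Clu among them, summed to 1370 to 29100 CPM in APEX2-ACTB, 129 to 6180 CPM in APEX2-DPP4 and 491 to 8580 CPM in APEX2-GFP libraries. Those of 8 general epithelial markers were 6210 to 11200 CPM in APEX2-ACTB, 3800 to 6450 CPM in APEX2-DPP4 and 3600 to 5140 CPM in APEX2-GFP libraries. Of 12 markers of fibroblasts and smooth muscle, no more than 2 reached 1 CPM in any library, and Acta2 and Des stayed below 1 CPM in all 14. Immune and endothelial markers summed to 8.04 to 67.2 CPM in the bait libraries, mostly from Csf1r. The mRNA of the bait gene Actb itself was at 1550 to 2410 CPM in APEX2-ACTB, 1230 to 2650 CPM in APEX2-DPP4 and 1020 to 2660 CPM in APEX2-GFP libraries. The DPP4 4 and GFP 1 libraries, from different baits, resembled each other more than any other pair (r = 0.927 over 7321 genes, against a median of 0.524 over the other pairs).

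The regulators differed widely from each other in level. Divided by exon length, destrin (Dstn), which severs and depolymerizes filaments, was highest, at a mean of 232 CPM per kb over the 12 bait libraries, followed by the Arp2/3 subunit Arpc2 (206), the monomer-binding profilin Pfn1 (164), the monomer-sequestering thymosin Tmsb4x (145) and the transgelin Tagln2 (121). The study names an msSCRB-seq protocol for reverse transcription on the beads. How reads cover a transcript was not examined here, so this order holds only if coverage is even. The ranges of these 5 genes over the libraries overlapped, from 10.3 to 391 CPM per kb. In CPM not divided by length, Actn4 had the highest mean (471), ahead of Dstn (442). Per kb, the order among the paralogs of the cofilin family was Dstn, Cfl1 (54.7) and Cfl2 (8.35), and among the alpha-actinins it was Actn4 (76.9) and Actn1 (18.5). Of the tropomyosins, which wrap around filaments, Tpm4 (89.3), Tpm3 (45.1) and Tpm1 (43.1) were well counted, and Tpm2, a muscle-rich form, was at 0.41 CPM per kb. The other genes of contractile cells were also scarce: the myosin light chain Myl9 had 46 counts in all 14 libraries and the smooth muscle transgelin Tagln 774. The non-muscle light chains Myl12a (530 counts) and Myl12b (474 counts) were also near the floor, and 18.5% and 24.7% of their 75-base stretches occur in other annotated genes. The gene sharing most with both is a second entry named Myl12b, a readthrough that overlaps them on the same strand and was left out of the list. Reads lost to shared sequence or counted for that entry therefore cannot be told apart from a low level. Likewise 57.8% of Capza1 occurs elsewhere, and 67.9% of the exon bases of Tagln lie over exons of Pcsk7 or Gm48529.

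**Figure D1:**
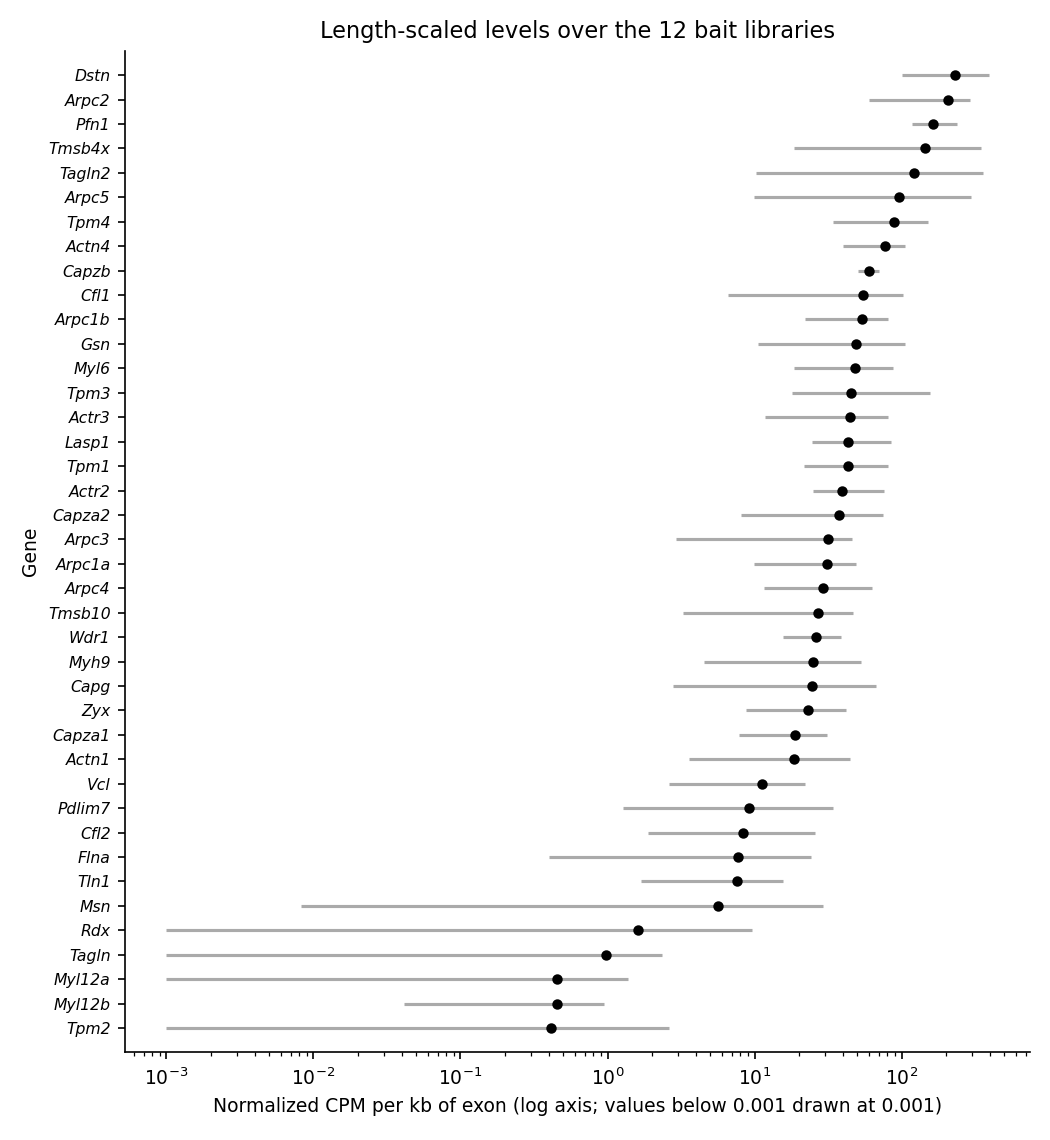
Levels of the 40 actin regulators with a mean of at least 1 CPM, in normalized CPM per kb of exon on a log axis. Points are means over the 12 bait libraries and lines run from the lowest to the highest library. Dstn, Arpc2 and Pfn1 are highest and Myl12a, Myl12b and Tpm2 lowest, an order that assumes even coverage of transcripts.

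The question for these genes was whether RNA encoding partners of actin was higher next to the actin bait than next to the other baits. Tmsb4x, which encodes thymosin beta 4, the main protein that keeps actin monomers from polymerizing, showed the clearest difference. It was at 418, 281, 478 and 471 CPM in the APEX2-ACTB libraries, against 39.0, 138, 25.4 and 93.6 CPM in APEX2-DPP4 and 119, 83.0, 158 and 84.7 CPM in APEX2-GFP libraries. Every APEX2-ACTB library lay above all 8 others. The log2 fold change was 1.89 ± 0.39 (SE) against APEX2-GFP (edgeR quasi-likelihood test with Benjamini-Hochberg adjustment, adjusted p = 0.814), 2.40 ± 0.63 against APEX2-DPP4 (adjusted p = 0.806) and 2.18 ± 0.43 against both baits in a fit of the 12 libraries (adjusted p = 0.311). An exact two-sided permutation test of the CPM gave 0.0286 in each comparison of 4 with 4 libraries, the smallest p that 70 arrangements allow, and 0.00202 in the comparison of 4 with 8, the smallest that 495 allow, with adjusted values of 0.978, 0.854 and 0.572 in that order of comparisons. With so few arrangements an adjusted permutation value can fall below 0.05 only if many genes reach the smallest p, so these adjusted values cannot decide on a single gene. Thus the groups did not overlap in these comparisons, and the difference did not pass the threshold over all genes. The spread within a bait was also wide, as the highest APEX2-DPP4 library exceeded the lowest 5.43 times. DESeq2 did call Tmsb4x in all 3 comparisons (adjusted p = 0.00132, 0.0407 and 0.00664), and over all alternatives the adjusted p in the 12-library contrast ranged from 0.00664 to 0.81. With an enterocyte marker covariate its log2 fold change in that contrast was 2.00 (edgeR adjusted p = 0.344). Within APEX2-ACTB, Tmsb4x was lowest in the ACTB 2 library, whose enterocyte marker sum of 42400 CPM was by far the highest of that bait, and without ACTB 2 the adjusted p of the contrast was 0.0393. The gene lies on chrX:167207093-167209315 (minus strand, ENSMUSG00000049775.16).

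Tagln2, which encodes transgelin 2, an actin-binding protein of non-muscle cells, followed the same order of baits with some overlap. It was at 747, 215, 572 and 458 CPM in APEX2-ACTB, 45.4, 181, 21.4 and 249 CPM in APEX2-DPP4 and 215, 98.1, 86.8 and 130 CPM in APEX2-GFP libraries. Of the APEX2-ACTB libraries 3 lay above all others, and ACTB 2 lay within their range. The log2 fold change was 1.92 ± 0.46 against APEX2-GFP (edgeR adjusted p = 0.814), 1.92 ± 0.72 against APEX2-DPP4 (adjusted p = 0.806) and 1.96 ± 0.51 in the 12-library contrast (adjusted p = 0.594). The exact two-sided permutation test gave p = 0.0571 in both comparisons of 4 with 4 libraries and p = 0.00606 in that of 4 with 8. Tagln2 lies on chr1:172500047-172507380 (plus strand).

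Pdlim7 encodes an enigma-type protein with PDZ and LIM domains that binds to actin filaments and focal adhesions. It was at 57.5, 33.9, 107 and 166 CPM in APEX2-ACTB, 30.4, 6.22, 34.0 and 34.2 CPM in APEX2-DPP4 and 24.7, 19.0, 12.6 and 9.05 CPM in APEX2-GFP libraries. The APEX2-ACTB libraries did not overlap those of APEX2-GFP, and the lowest of them, ACTB 2, lay just below DPP4 3 and DPP4 4. The log2 fold change was 2.48 ± 0.56 against APEX2-GFP (edgeR adjusted p = 0.814), 1.72 ± 0.63 against APEX2-DPP4 (adjusted p = 0.806) and 2.14 ± 0.51 in the 12-library contrast (adjusted p = 0.573). With the enterocyte marker covariate these values were 1.85, 1.08 and 1.60 in the same order. Pdlim7 was called by DESeq2 against APEX2-GFP only (adjusted p = 0.0324), and its adjusted p there ranged from 0.0324 to 1.0 over the alternatives. Pdlim7 lies on chr13:55495795-55513676 (minus strand).

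The core promoters of these 3 genes are shown because they had the smallest p-values of the regulators against APEX2-GFP. Each run gives 250 bases before and 50 bases after the annotated start (RefSeq, GRCm38.p6), 5′ to 3′ on the strand of the gene, with the GC box GGGCGG or its reverse complement CCGCCC in capitals.
Tmsb4x: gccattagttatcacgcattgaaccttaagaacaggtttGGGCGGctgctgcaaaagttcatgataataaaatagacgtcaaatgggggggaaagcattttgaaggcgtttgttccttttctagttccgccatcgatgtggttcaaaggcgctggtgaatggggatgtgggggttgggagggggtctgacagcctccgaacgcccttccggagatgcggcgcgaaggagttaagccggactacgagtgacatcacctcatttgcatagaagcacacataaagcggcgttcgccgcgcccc
Tagln2: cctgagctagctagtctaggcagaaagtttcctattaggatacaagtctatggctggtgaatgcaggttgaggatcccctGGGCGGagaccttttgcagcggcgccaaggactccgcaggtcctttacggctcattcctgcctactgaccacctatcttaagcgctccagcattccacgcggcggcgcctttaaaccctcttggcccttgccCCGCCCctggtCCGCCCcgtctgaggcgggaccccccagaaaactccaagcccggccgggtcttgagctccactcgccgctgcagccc
Pdlim7: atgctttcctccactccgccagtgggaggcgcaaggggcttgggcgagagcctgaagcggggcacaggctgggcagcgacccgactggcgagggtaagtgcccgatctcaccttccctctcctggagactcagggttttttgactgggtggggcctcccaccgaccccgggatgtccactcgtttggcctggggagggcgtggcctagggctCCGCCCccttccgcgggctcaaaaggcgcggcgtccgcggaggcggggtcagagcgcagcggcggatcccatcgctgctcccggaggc
The windows lie on chrX:167209169-167209468, chr1:172499996-172500295 and chr13:55513397-55513696. They held 1, 3 and 1 GC boxes, and 52.7%, 61.3% and 69.7% of their bases were G or C. A GC box occurred in 40 of the 47 promoter windows that RefSeq gives for 40 of the regulators (no entry matched Tagln), and in 35.7% of all 32851 windows of the same length. The CArG box, the motif bound by serum response factor, whose known targets include many actin genes, was searched on both strands as well. It occurred in 4 of the 47 windows, those of Arpc4, Myl6, Myl9 and Vcl, and in 1.63% of all windows, and none of the 3 windows above held it. The motif GGAATG of TEAD factors occurred in 8 of the 47 and in 14.7% of all windows, and of the 3 genes Tagln2 had it. The window of Vcl, the focal adhesion protein vinculin, is given for contrast, with its CArG box in capitals (chr14:20929148-20929447).
Vcl: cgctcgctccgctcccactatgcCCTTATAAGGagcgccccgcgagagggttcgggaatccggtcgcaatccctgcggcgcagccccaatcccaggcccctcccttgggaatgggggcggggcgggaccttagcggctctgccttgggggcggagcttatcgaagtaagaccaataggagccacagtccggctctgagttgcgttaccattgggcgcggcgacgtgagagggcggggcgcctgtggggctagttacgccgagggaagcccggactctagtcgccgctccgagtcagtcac
That box lies 222 bases before the start. A match in these windows is a description of sequence and does not show binding.

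The other regulators with an unadjusted p below 0.05 showed smaller differences or rested on single libraries. Zyx encodes zyxin, a LIM protein of focal adhesions and stress fibers. It was at 205, 161, 132 and 224 CPM in APEX2-ACTB, 143, 54.2, 130 and 47.5 CPM in APEX2-DPP4 and 67.0, 122, 139 and 62.2 CPM in APEX2-GFP libraries, so that only ACTB 3 lay within the range of the others. Its log2 fold change was 0.89 ± 0.40 against APEX2-GFP (edgeR adjusted p = 0.814), 0.87 ± 0.55 against APEX2-DPP4 (adjusted p = 0.932) and 0.92 ± 0.41 in the 12-library contrast (adjusted p = 0.682).

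Cfl1 encodes cofilin 1, which severs aged filaments, and Arpc3 a subunit of the Arp2/3 complex, which starts filament branches. Cfl1 was at 196, 201, 293 and 199 CPM in APEX2-ACTB, 199, 183, 18.6 and 76.3 CPM in APEX2-DPP4 and 76.6, 140, 162 and 122 CPM in APEX2-GFP libraries. Arpc3 was at 126, 106, 122 and 127 CPM in APEX2-ACTB, 126, 96.9, 8.04 and 79.8 CPM in APEX2-DPP4 and 77.0, 52.0, 57.4 and 71.0 CPM in APEX2-GFP libraries. For both genes the APEX2-ACTB libraries stood clear of those of APEX2-GFP and overlapped those of APEX2-DPP4. The log2 fold change against APEX2-GFP was 0.82 ± 0.38 for Cfl1 (edgeR adjusted p = 0.814) and 0.91 ± 0.36 for Arpc3 (adjusted p = 0.814). Against APEX2-DPP4 it was 0.83 ± 0.63 for Cfl1 (edgeR adjusted p = 0.992) and 0.56 ± 0.62 for Arpc3 (adjusted p = 1.0), and without DPP4 3, where both were lowest, it was 0.54 for Cfl1 and 0.27 for Arpc3. Of the exon bases of Cfl1, 16.5% lie over those of Snx32, and no strand was marked in these libraries.

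Rdx encodes radixin, which ties filaments to the membrane, and its difference rested on 2 libraries. It was at 0.63, 0.11, 0.43 and 0.80 CPM in APEX2-ACTB, 0.47, 0.93, 6.03 and 33.2 CPM in APEX2-DPP4 and 44.5, 0, 1.14 and 0.92 CPM in APEX2-GFP libraries. The high values were those of DPP4 4 and GFP 1, the most similar pair of libraries in the set. The log2 fold change was -4.51 ± 1.93 against APEX2-GFP (edgeR adjusted p = 0.814) and -4.43 ± 1.41 against APEX2-DPP4 (adjusted p = 0.806). Without GFP 1 the value against APEX2-GFP was -0.50, without DPP4 4 the value against APEX2-DPP4 was -2.42, and without both libraries the value in the 12-library contrast was -1.39, against -4.45 with them. DESeq2 called Rdx against APEX2-DPP4 (adjusted p = 0.0366, range 0.0366 to 1.0 over the alternatives).

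**Figure D2:**
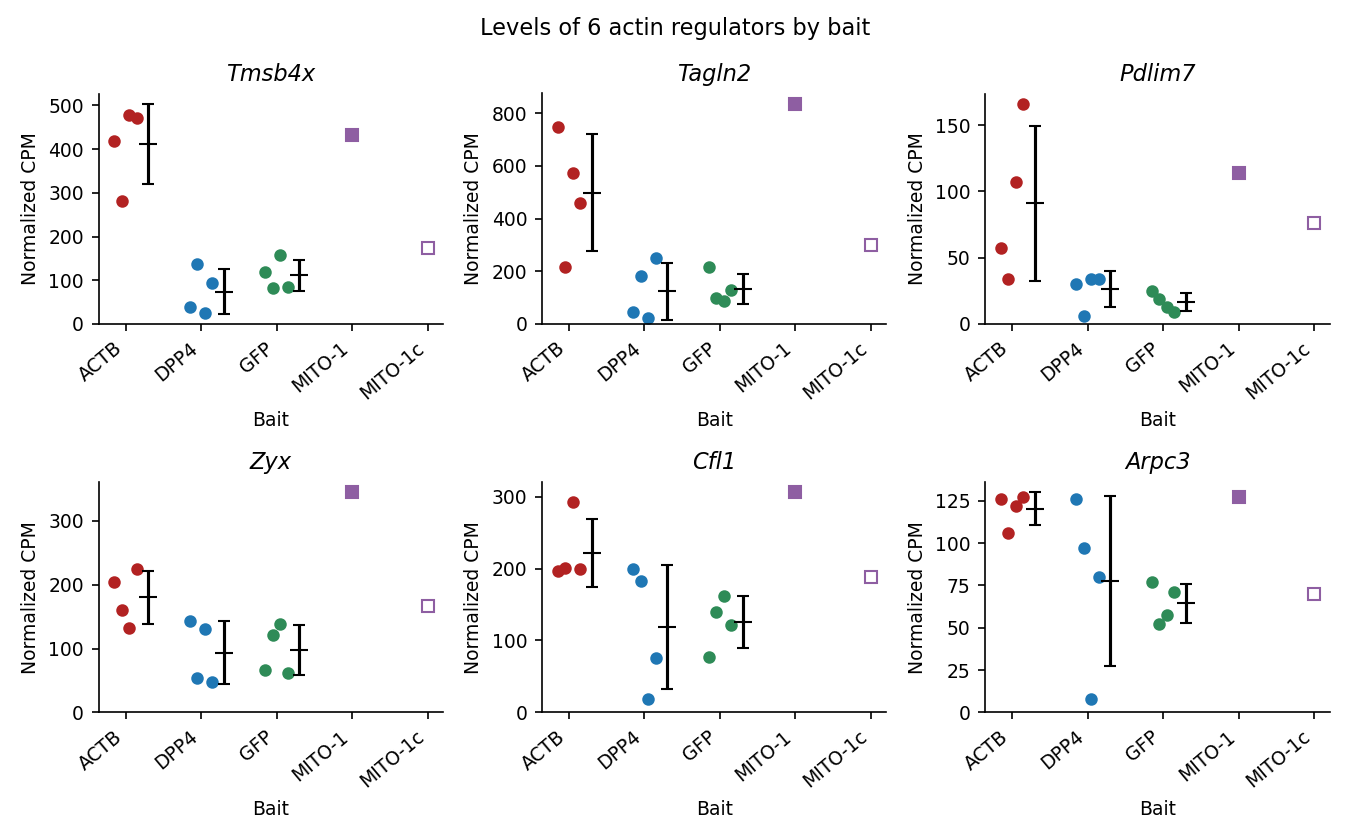
Normalized CPM of Tmsb4x, Tagln2, Pdlim7, Zyx, Cfl1 and Arpc3 in each library by bait. Circles are libraries, bars give mean and SD of 4 libraries per bait, and squares are the single MITO libraries; the APEX2-ACTB points of Tmsb4x lie between 281 and 478 CPM, above all 8 points of APEX2-DPP4 and APEX2-GFP.

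Counted over all 41 genes, 0 were called in any of the 4 comparisons by edgeR (adjusted p below 0.05 and log2 fold change beyond 1), and the background was the same, with 0.0% of the 26470, 27451, 28765 and 26136 genes tested called against APEX2-GFP, against APEX2-DPP4, in the 12-library contrast and in APEX2-DPP4 against APEX2-GFP. DESeq2 called 2, 2, 1 and 0 of the regulators in the same comparisons, from 71, 140, 112 and 53 genes in all. The study itself reports many transcripts enriched in either direction between APEX2-DPP4 and APEX2-GFP at these thresholds, after quality filtering of samples and a correction for preparation dates. Neither step was run here, so the absence of edgeR calls holds for these uncorrected fits only. At an unadjusted p below 0.05, 6 regulators were higher in APEX2-ACTB than in APEX2-GFP, where 3.22% of all genes were, and 1 was lower, where 2.4% were. Those 6 were Tmsb4x, Cfl1, Arpc3, Tagln2, Zyx and Pdlim7, and the lower one was Rdx. Against APEX2-DPP4, 3 were higher (Tmsb4x, Tagln2 and Pdlim7, with 2.22% of all genes) and 1 lower (Rdx, with 3.95%). In the 12-library contrast 4 were higher (the same 3 and Zyx, with 4.83% of all genes) and 1 lower (Rdx, with 2.14%). In APEX2-DPP4 against APEX2-GFP, none of the 41 had a p below 0.05, against 5.87% of all genes, and the smallest was that of Arpc5 (log2 fold change -1.32 ± 0.69, edgeR adjusted p = 0.84). These shares cover tested genes of any level. At a mean of 1 CPM or more, 339 of 14465 genes were higher and 284 lower against APEX2-GFP. Against APEX2-DPP4 326 of 14385 were higher and 335 lower, and in the 12-library contrast 442 of 14443 and 241. In APEX2-DPP4 against APEX2-GFP 188 of 14315 were higher and 231 lower.

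By the overlap of libraries, 4 of the 40 regulators above the mean level of 1 CPM had every APEX2-ACTB library above every APEX2-GFP library, against 1.6% of all such genes, and none had them all below, against 0.899%. Against APEX2-DPP4 this held for 1 of 39 (Tmsb4x), against 2.13% of all such genes, with none below, against 0.89%. Against all 8 libraries of both baits it held for 1 of 40, Tmsb4x again, against 0.415%, and none lay below, against 0.166%. The comparisons of APEX2-ACTB share its 4 libraries and are not independent of each other.

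Over the whole list the differences were small. The median log2 fold change of the 41 genes was 0.26 against APEX2-GFP, where 27 lay above 0 and the median of all genes tested was 0.11, or 0.02 for genes at 1 CPM or more. Against APEX2-DPP4 it was 0.32, with 30 above 0 and a median of all genes of -0.05, or 0.07 at 1 CPM or more, and in the 12-library contrast it was 0.32, with 28 above 0 and a median of all genes of 0.07, or 0.08 at 1 CPM or more. In APEX2-DPP4 against APEX2-GFP it was -0.09, with 16 above 0 and a median of all genes of 0.09, or -0.10 at 1 CPM or more, and with DESeq2 size factors the median of the regulators was 0.02. Summed levels of the 41 genes were 7375 to 8359 CPM in APEX2-ACTB, 4573 to 6057 CPM in APEX2-DPP4 and 4650 to 7327 CPM in APEX2-GFP libraries. The APEX2-ACTB sums were thus above those of the 8 other bait libraries, the lowest, ACTB 1, by a small margin over GFP 2. Tmsb4x alone was at 418 CPM in ACTB 1 and 83.0 CPM in GFP 2, and without this gene the sums of APEX2-ACTB and APEX2-GFP overlapped. The sum of all 41 genes was 11334 CPM in MITO-1 and 7769 CPM in MITO-1c, neither below the lowest APEX2-ACTB library. The sums of the general epithelial markers, given above, were also higher in APEX2-ACTB than in APEX2-GFP libraries without overlap, and their part in these differences was not tested. Taken singly, Krt8 and Krt19 did not overlap between these baits, whereas Epcam, Cdh1, Krt18, Krt20, Vil1 and Cldn7 did. Vil1 was at 145, 412, 149 and 207 CPM in APEX2-ACTB and 172, 689, 690 and 232 CPM in APEX2-GFP libraries.

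Of the 7 genes for monomer binding and filament turnover, all 7 lay above 0 against APEX2-GFP (median 0.49) and 5 against APEX2-DPP4 (median 0.38). Besides Tmsb4x and Cfl1 these were, against APEX2-GFP, Tmsb10 (0.77), a second thymosin, Pfn1 (0.49), Cfl2 (0.33), Wdr1 (0.28), which helps cofilin to take filaments apart, and Dstn (0.07), while Cfl2 (-0.89) and Dstn (-0.47) lay below 0 against APEX2-DPP4. The value of Dstn against APEX2-GFP had an SE of 0.43 and fell below 0 when ACTB 1, ACTB 2, ACTB 3 or GFP 1 was left out. Of all genes at 1 CPM or more, 7370 of 14465 lay above 0 against APEX2-GFP and 7742 of 14385 against APEX2-DPP4. Summed over the 7 genes, levels were 1780 to 1940 CPM in APEX2-ACTB libraries, against 1030 to 1640 CPM in APEX2-DPP4 and 1050 to 1660 CPM in APEX2-GFP libraries, so that the sum showed no overlap. Without Tmsb4x the sums of the other 6 did overlap, at 1360 to 1500 CPM in APEX2-ACTB, 936 to 1600 CPM in APEX2-DPP4 and 933 to 1500 CPM in APEX2-GFP libraries.

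The 5 crosslinkers and transgelins had a median of 1.07 against APEX2-GFP and 0.42 against APEX2-DPP4. Tagln2 was highest in both comparisons. Flna, which encodes filamin A, a crosslinker of filament networks, was at 1.07 ± 1.03 and 1.67 ± 1.09. Tagln, with 774 counts in all libraries, was at 1.30 ± 1.55 and 0.42 ± 1.41. The median was thus the value of Flna against APEX2-GFP and that of Tagln against APEX2-DPP4. Actn4, the alpha-actinin of epithelial cells, was at -0.15 and 0.09. The 5 focal adhesion and LIM proteins had medians of 0.34 and 0.17, with Pdlim7 and Zyx above and Tln1 (-0.17 and 0.02), the talin that links integrins to actin, and Vcl (0.34 and 0.17) close to 0. Lasp1, another LIM protein, was at 0.09 against APEX2-GFP and -0.67 against APEX2-DPP4.

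Of the 8 genes of the Arp2/3 complex, against APEX2-GFP 3 lay above and 5 below 0 (median -0.07, range -0.63 to 0.91), and against APEX2-DPP4 7 lay above (median 0.37, range -0.01 to 0.63). Arpc3 (0.91) and Arpc1a (0.69) were at the upper end against APEX2-GFP, and Actr2 (-0.60) and Arpc5 (-0.63) at the lower end. The 5 capping and severing genes had no member with a p below 0.05. The smallest p of this subgroup against APEX2-GFP was that of Gsn, which encodes the severing protein gelsolin. It was at 151, 211, 178 and 335 CPM in APEX2-ACTB, 56.4, 33.1, 152 and 215 CPM in APEX2-DPP4 and 200, 152, 101 and 62.2 CPM in APEX2-GFP libraries, with overlap between all baits (log2 fold change 0.77 ± 0.43 against APEX2-GFP, edgeR adjusted p = 0.817). Capzb, the beta chain of capping protein, was the steadiest of all, at 195 to 222 CPM in APEX2-ACTB, 167 to 227 CPM in APEX2-DPP4 and 191 to 233 CPM in APEX2-GFP libraries.

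Tropomyosins and myosin II chains also lacked any member with a p below 0.05. Against APEX2-GFP, Tpm1, Tpm3 and Tpm4 had log2 fold changes of -0.08, 0.14 and 0.08, and against APEX2-DPP4 of 0.70, -0.51 and 0.84. Without DPP4 3, the value of Tpm3 against APEX2-DPP4 was 0.89. Tpm2 was at 0, 1.01, 1.55 and 0.46 CPM in APEX2-ACTB, 0, 0.05, 0 and 3.29 CPM in APEX2-DPP4 and 7.55, 0.13, 0 and 0.42 CPM in APEX2-GFP libraries, and its fitted fold change took either sign depending on which libraries were kept. Myl9, with the smallest p of the myosin chains, had at least 1 count in few libraries (0.04 CPM in ACTB 2, 0.65 CPM in DPP4 2 and 0.58 CPM in GFP 1, and 0 in the other 9), too few for a fold change. Myh9, the heavy chain of non-muscle myosin IIA, was at 610, 179, 146 and 684 CPM in APEX2-ACTB, 58.3, 105, 390 and 322 CPM in APEX2-DPP4 and 440, 406, 192 and 326 CPM in APEX2-GFP libraries. Of the 8 libraries of the other baits, all but DPP4 1 and DPP4 2 lay within the range of APEX2-ACTB.

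**Figure D3:**
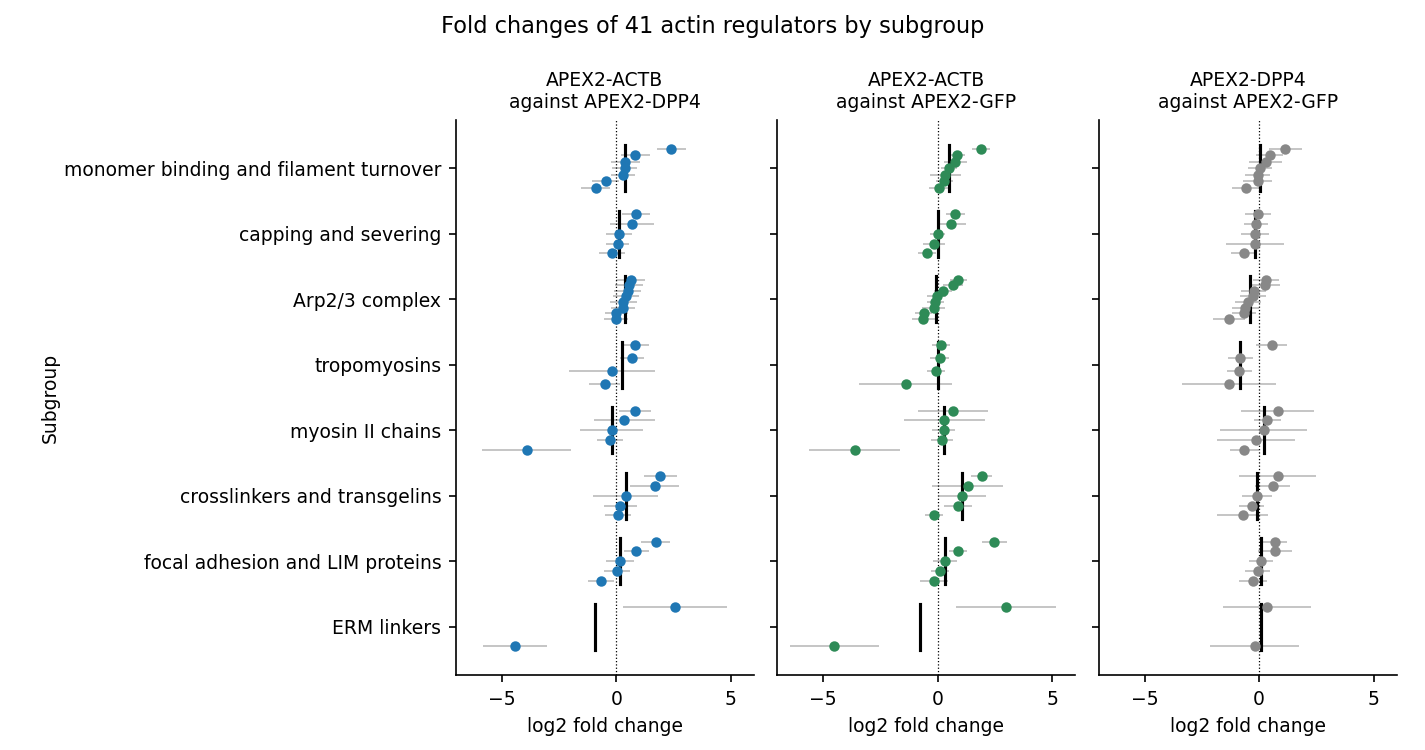
Log2 fold changes of the 41 actin regulators by subgroup in 3 comparisons of baits. Points are genes with their SE and vertical bars are subgroup medians. In the comparison of APEX2-ACTB with APEX2-GFP the 7 genes for monomer binding and turnover all lie above 0, Dstn at only 0.07 ± 0.43. In APEX2-DPP4 against APEX2-GFP no gene has a p below 0.05.

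Msn, Flna and Actn1 varied between libraries within each bait, and Capg within APEX2-DPP4 and APEX2-GFP. These 4 genes were chosen after their values had been seen. Msn, which encodes moesin, the membrane linker of many non-epithelial and migrating cells, was at 35.8, 0.07, 111 and 186 CPM in APEX2-ACTB, 0.30, 0.05, 17.1 and 36.0 CPM in APEX2-DPP4 and 25.0, 0.07, 0.36 and 16.6 CPM in APEX2-GFP libraries. Each bait thus had libraries near 0 and libraries well above 10 CPM. Flna was at 111, 10.9, 137 and 230 CPM in APEX2-ACTB, 3.79, 6.43, 59.0 and 74.9 CPM in APEX2-DPP4 and 179, 26.0, 20.2 and 11.1 CPM in APEX2-GFP libraries. Actn1 was at 146, 36.5, 148 and 185 CPM in APEX2-ACTB, 20.0, 37.7, 247 and 121 CPM in APEX2-DPP4 and 161, 32.9, 23.5 and 65.8 CPM in APEX2-GFP libraries. In all 3 genes ACTB 2, DPP4 1, DPP4 2, GFP 2 and GFP 3 were among the low libraries. Capg, a capping protein related to gelsolin, was at 67.9, 83.7, 83.6 and 93.4 CPM in APEX2-ACTB, 7.10, 9.36, 9.17 and 169 CPM in APEX2-DPP4 and 148, 8.48, 27.2 and 36.1 CPM in APEX2-GFP libraries, so that it stayed high in ACTB 2 and was highest in DPP4 4 and GFP 1.

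Enterocyte markers summed to 1970, 42400, 395 and 190 CPM in APEX2-ACTB, 68200, 6900, 10200 and 459 CPM in APEX2-DPP4 and 411, 16500, 43900 and 4010 CPM in APEX2-GFP libraries. The 5 libraries with the lowest of these sums, ACTB 1, ACTB 3, ACTB 4, DPP4 4 and GFP 1, were also those with the highest Flna. This did not hold for every gene above, since Actn1 was highest in DPP4 3 and Capg was at 83.7 CPM in ACTB 2. The 8 fetal or regenerative markers summed to 6910, 1370, 27000 and 29100 CPM in APEX2-ACTB, 500, 129, 6180 and 4660 CPM in APEX2-DPP4 and 8580, 491, 1440 and 658 CPM in APEX2-GFP libraries, while Cd44 of the same list was highest in DPP4 3. Since 3 such libraries belong to APEX2-ACTB and 1 to each other bait, the state of the organoids and the bait are partly mixed, and their shares in the differences of these genes cannot be told apart. Fibroblast and smooth muscle markers summed to 0.04 to 2.56 CPM in APEX2-ACTB, 1.26 to 7.45 CPM in APEX2-DPP4 and 0.10 to 41.2 CPM in APEX2-GFP libraries. The highest sum was in GFP 2, mostly from Vim (33.0 CPM) and Pdgfrb (8.05 CPM), and Msn was at 0.07 CPM there. The part of such cells in the levels of Msn and Flna was not tested.

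Seen by library, ACTB 4 had the highest value of the 12 for 13 of the 40 regulators with a mean of at least 1 CPM, and DPP4 3 the lowest for 14. The shares over all genes were not computed, so these counts do not set the regulators apart from other genes. DPP4 3 was low in Tmsb4x (25.4 CPM), Tmsb10 (4.14 CPM), Cfl1 (18.6 CPM), Arpc3 (8.04 CPM) and Arpc5 (22.7 CPM) and high in Tpm3 (941 CPM, against 110 to 325 CPM in the 11 other bait libraries), Cfl2 (83.9 CPM) and Lasp1 (549 CPM). Its total of 19649427 counts was not the lowest. Within a bait, the highest library exceeded the lowest by a median of 1.94 times in APEX2-ACTB, 4.1 times in APEX2-DPP4 and 2.44 times in APEX2-GFP over the 35 regulators with a mean of at least 10 CPM. For all 9713 genes at that level the medians were 2.89, 3.98 and 3.42 times.

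**Figure D4:**
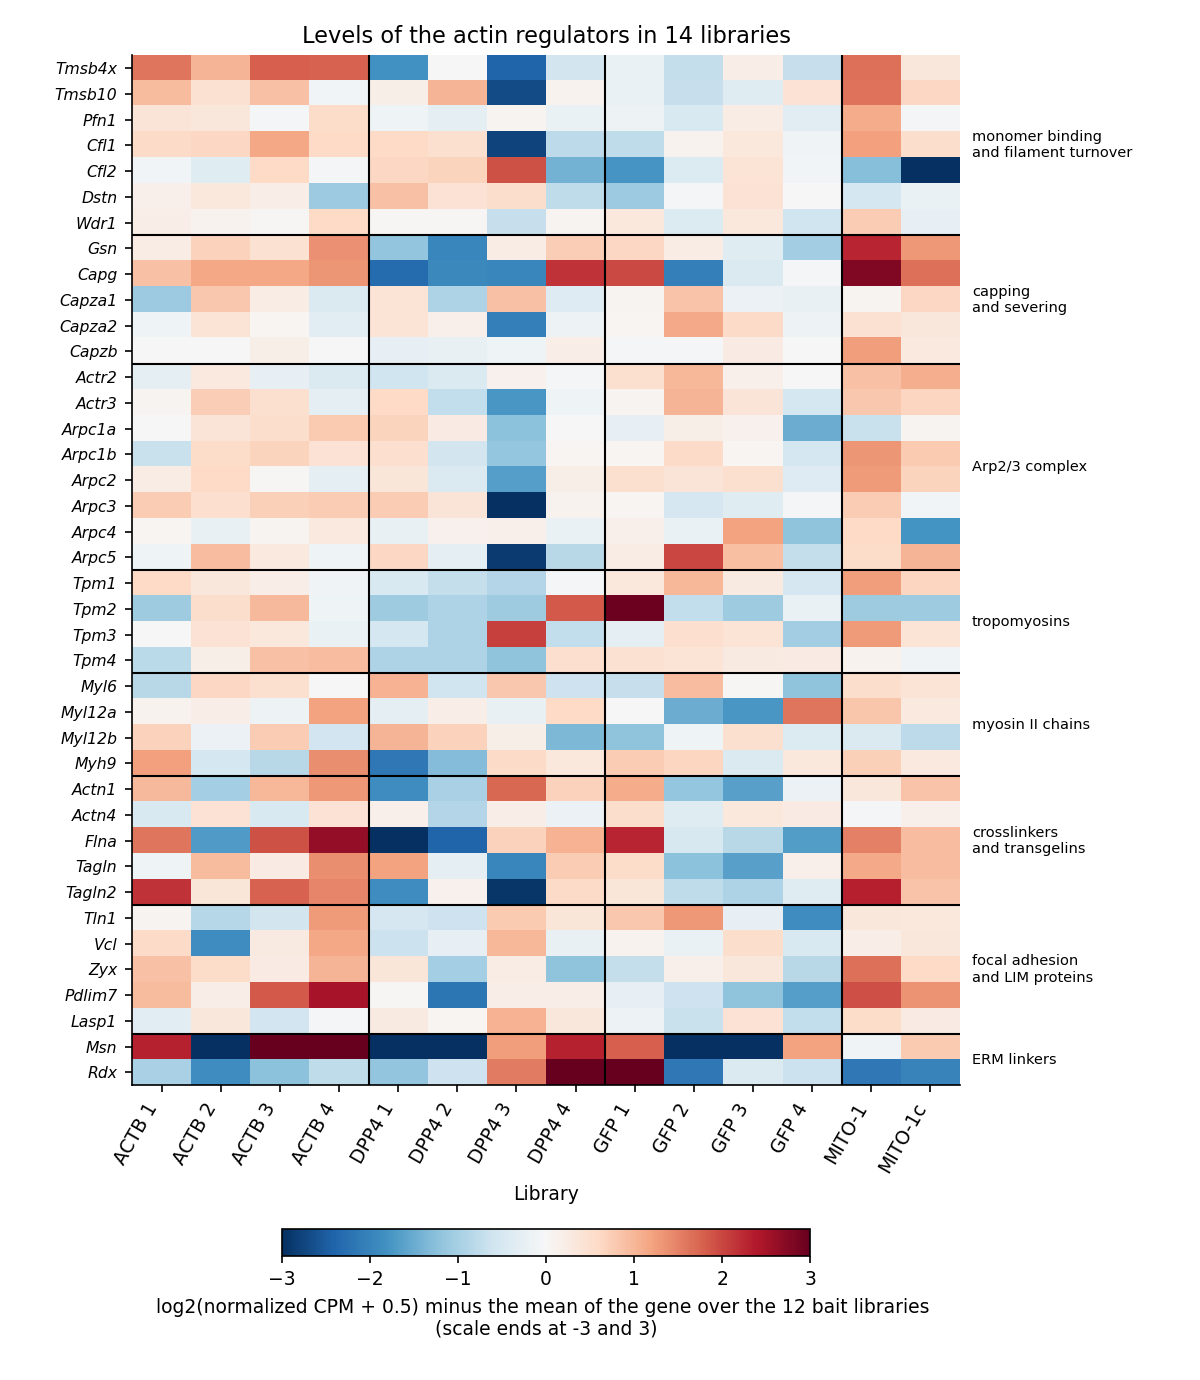
Log2 level of 40 actin regulators in 14 libraries relative to the mean of each gene over the 12 bait libraries, grouped by subgroup. Red is above and blue below that mean; Tmsb4x is red in all 4 APEX2-ACTB libraries, and DPP4 3 is blue for Tmsb10, Cfl1, Arpc3 and Arpc5.

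In 50 other actin pathway genes, among them formins and WAVE complex subunits, 0 were higher and 1 was lower in APEX2-ACTB than in APEX2-GFP at an unadjusted p below 0.05, with a median log2 fold change of 0.13. Against APEX2-DPP4, 0 were higher and 2 lower (median 0.15), and in the 12-library contrast 0 were higher and 1 lower (median 0.22). The lower gene in all 3 comparisons was Cotl1, which encodes the filament-binding coactosin-like protein. It was at 37.2, 79.0, 31.4 and 19.9 CPM in APEX2-ACTB, 143, 169, 132 and 55.5 CPM in APEX2-DPP4 and 53.8, 94.7, 169 and 126 CPM in APEX2-GFP libraries, and only ACTB 2 lay within the range of the others. Its log2 fold change was -1.41 ± 0.51 against APEX2-GFP (edgeR adjusted p = 0.814) and -1.66 ± 0.57 against APEX2-DPP4 (adjusted p = 0.806). The second lower gene against APEX2-DPP4 was Twf1, which encodes the monomer-binding twinfilin 1 (-1.80 ± 0.71, edgeR adjusted p = 0.806). The next smallest p-values against APEX2-GFP were those of Cnn3 (log2 fold change 0.87), Wasf2 (-0.59), Pls1 (-1.02), Nckap1 (-0.59) and Actg1 (0.67), none of which had a p below 0.05. Pls1, the bundling protein of the brush border, was at 178, 997, 144 and 169 CPM in APEX2-ACTB, 1220, 422, 2300 and 385 CPM in APEX2-DPP4 and 495, 1180, 1040 and 312 CPM in APEX2-GFP libraries, high in ACTB 2 as the enterocyte markers were.

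The study describes mitochondrial samples with and without peroxide, and the labels do not say which of these MITO-1 and MITO-1c are. Both libraries are single and their values are set side by side without a test. Their totals were 18268471 counts in MITO-1 and 18716681 in MITO-1c. Tmsb4x was at 432 CPM (95% exact binomial interval 422 to 442) in MITO-1 and 173 CPM (167 to 178) in MITO-1c, the first within and the second below the range of the APEX2-ACTB libraries. Tagln2 was at 834 CPM (820 to 848) in MITO-1 and 299 CPM (291 to 307) in MITO-1c. The intervals cover counting error only. Of 38 regulators with more than 3 counts in MITO-1c, 29 were higher in MITO-1 than in MITO-1c and 9 lower, with a median ratio of 1.5, and 46.3% of all such genes at a mean of 1 CPM or more were higher in MITO-1. In MITO-1, 12 of 40 regulators exceeded all 12 bait libraries, against 8.96% of all genes at 1 CPM or more, among them Pfn1 (840 CPM), Arpc2 (945 CPM) and Capzb (470 CPM), and in MITO-1c 4 did, against 5.44%.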

How the data were processed

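RNA captured in 14 libraries was counted per gene. The study's methods and the submitters' processing notes name FastQC 0.11.9 and cutadapt 4.0 for read checks and trimming, STAR 2.7.9a for alignment to GRCm38, and HTSeq 1.99.2, in default mode, for counting. The deposited table used here holds raw counts per gene. The methods also describe removal of libraries and a correction for preparation dates, which raw counts do not hold, and the dates are not in the labels. Default counting drops reads that fit several places or genes, and the kit does not mark the strand, so overlapping and near-identical genes are uncertain.

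Group and replicate came from sample titles. The regulators, their subgroups and all gene lists were chosen with earlier results of these data known. Gene names and coordinates are from a GENCODE annotation of GRCm38, in which 54349 IDs matched with their version and 792 without it, and 260 stayed unnamed. Promoters are from RefSeq (GRCm38.p6).

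Each pairwise comparison used the 8 libraries of its baits, and the contrast of APEX2-ACTB against APEX2-DPP4 and APEX2-GFP used 12. Genes had to have 5 counts or more in total. TMM factors, robust quasi-likelihood fits of edgeR 4.0.16 (R 4.3.3) and Benjamini-Hochberg adjustment over all genes were used, and calls needed an adjusted p below 0.05 and a log2 fold change beyond 1. Exact two-sided permutation tests compared normalized CPM and were adjusted over the genes whose mean reached 1 CPM. Alternatives were DESeq2 1.42.0, its size factors, other filters, single libraries or low-depth libraries left out, an enterocyte marker covariate, a replicate block and 1 fit of 12 libraries. Leaving out the closest pair of libraries was added after the data had been seen. Values in every library are given for regulators with an unadjusted p below 0.05 in a comparison of APEX2-ACTB or with APEX2-ACTB libraries apart from another bait, and for the smallest p of a subgroup without such a gene. Up to 6 other pathway genes with the smallest p against APEX2-GFP are named. Depth was 9442594 to 36492010 counts per library.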

Additional observations from a re-analysis of the deposited data

Results flagged for a closer look

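In groups of 4 libraries, a value was singled out where its gap to the nearest of the others exceeded Dixon's 95% critical value. This occurred in 13 of 120 groups of 40 regulators and 3 baits, where normal and independent values would give about 1 in 20, or 6.0. CPM values need not be of that kind, and the share over all genes was not computed. No excess is therefore shown for the regulators. Of these, 4 were in the DPP4 4 library: Capg at 169 CPM (next 9.36), Tpm4 at 247 CPM (next 92.8), Rdx at 33.2 CPM (next 6.03) and Tpm2 at 3.29 CPM (next 0.05). In GFP 1, the library most similar to DPP4 4, Rdx was at 44.5 CPM (next 1.14), Tpm2 at 7.55 CPM (next 0.42) and Flna at 179 CPM (next 26.0). In DPP4 3, Tpm3 was at 941 CPM (next 157), Vcl at 161 CPM (next 69.3) and Wdr1 low at 140 CPM (next 231). Single values were Cfl1 at 293 CPM in ACTB 3 (next 201), Pdlim7 low at 6.22 CPM in DPP4 2 (next 30.4) and Arpc2 low at 298 CPM in GFP 4 (next 512). Enterocyte marker sums of DPP4 4 and GFP 1 were 459 and 411 CPM, the lowest of their baits, and their part in these values was not tested.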

How the results depend on the processing

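Under every alternative run, the median log2 fold change of the regulators stayed above 0 in the 3 comparisons of APEX2-ACTB. Against APEX2-GFP it was 0.19 with an enterocyte marker covariate, where the median of all genes tested was -0.01. Without low-depth libraries it was 0.14, below the median of 0.23 of all genes tested. A median above 0 thus does not by itself set the regulators apart from all genes. With single libraries left out it was 0.14 to 0.38 against APEX2-GFP, 0.18 to 0.39 against APEX2-DPP4, 0.24 to 0.41 in the 12-library contrast and -0.25 to 0.08 in APEX2-DPP4 against APEX2-GFP. Size factors of DESeq2 moved the median of all genes in that last comparison to 0.20, against 0.09 with TMM.

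The count of called regulators, 0 by edgeR, was 2 with DESeq2 against APEX2-GFP (Pdlim7, 2.48, and Tmsb4x, 1.87), 2 with DESeq2 against APEX2-DPP4 (Rdx, -4.50, and Tmsb4x, 2.36) and 1 with DESeq2 in the 12-library contrast (Tmsb4x, 2.11). In that contrast it was 1 without a filter (Tmsb4x, 2.15, adjusted p = 0.0467) and 0 to 1 with single libraries left out (Tmsb4x, 2.33 without ACTB 2), and in the pairwise comparisons it stayed at 0 with single libraries left out. Over all genes, DESeq2 called 71 against APEX2-GFP, 140 against APEX2-DPP4, 112 in the 12-library contrast and 53 in APEX2-DPP4 against APEX2-GFP, where edgeR called 0. The cause was not tested.

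Correlations of same-numbered libraries of different baits ran from -0.632 to 0.497, and those of differently numbered ones from -0.562 to 0.731. The numbers thus gave no sign of pairing, and whether they mark shared batches was not tested. With the replicate block, 1 regulator was called against APEX2-DPP4 (Msn, log2 fold change 3.03 ± 0.82, adjusted p = 0.0402), and over all genes 67 were called higher and 99 lower there. The block called 0 regulators in the other comparisons.

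With single libraries left out, 17 of the 41 regulators changed sign at least once against APEX2-GFP, 13 against APEX2-DPP4, 15 in the 12-library contrast and 21 in APEX2-DPP4 against APEX2-GFP. Sign changes were not counted over all genes. Without DPP4 3, Tpm3 was at 0.89 against APEX2-DPP4 (-0.51 with it) and at 0.51 in the 12-library contrast (-0.14 with it). Tpm2, with 393 counts in all libraries, did so as well. Against APEX2-GFP it was -1.40, but 1.38 with the replicate block and -2.10 to 2.05 with single libraries left out. Against APEX2-DPP4 it was -0.19, but 2.87 with the block, 1.13 with the covariate, 4.87 without low-depth libraries and -0.81 to 4.87 with single libraries left out, the highest without DPP4 4. In the 12-library contrast it was -0.77, but 2.61 with the block, 1.87 with the covariate, 1.59 without low-depth libraries, 3.50 without the closest pair and -1.39 to 1.76 with single libraries left out.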
